A study of Homo sapiens with 6 samples.

Results

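DNA replication and mitosis genes, 43 of the 22496 gene symbols in the deposited tables, were compared between SHARPIN knockout and non-target LoVo cells. They were chosen by name: 23 genes that copy the DNA in S phase and 20 that divide the chromosomes in mitosis. All 43 were listed in the tables and all 43 passed the filter on low values (at least 1 FPKM in at least 3 of the 6 libraries). LoVo is an established human colon adenocarcinoma line. There were 3 poly-A RNA libraries of the genotype labelled non-target and 3 of the genotype labelled SHARPIN knockout, and no treatment or time is given for either. The sources used here do not state how the knockout cells were edited, whether they were a single clone or a pool, or whether replicates were separate cultures. The p-values thus cover the spread among these 6 libraries, part or all of which may be technical.

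Cells license replication origins by loading the MCM2 to MCM7 helicase with CDC6 and CDT1, and fire them by adding CDC45 and the GINS complex. Polymerases, the sliding clamp PCNA, nucleotide synthesis enzymes and chromatin assembly factors then duplicate the chromosome. Mitosis follows under CDK1 with its cyclins, the Aurora and Polo-like kinases, the spindle checkpoint and the anaphase-promoting complex. Transcription of both sets rises and falls with the cell cycle. Replication genes are classical targets of E2F factors, and mitosis genes are read later, through CCAAT boxes bound by NF-Y and the CHR element (cell cycle genes homology region) bound by the DREAM and MuvB complexes. In bulk RNA, fewer cells in a phase and less RNA per cell cannot be told apart.

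The promoters of the 2 sets differed in these letters. RefSeq windows (GRCh38.p14) from 250 bases before to 50 bases after the start were at hand for 37 members, 21 of replication and 16 of mitosis. On both strands, an E2F core, searched as TTCCCGC and, with other central letters, as TTGGCGC and then also as TTCGCGC, stood in 17 of 21 replication windows (81.0%) and in 3 of 16 mitosis windows (18.8%), against 18.2% of the 9805 windows of genes tested here and 11.2% of all 27305 windows. A CHR core, searched as TTTGAA and in its less common form TTCGAA, stood in 2 of 21 replication windows (9.52%) and 11 of 16 mitosis windows (68.8%), against 11.0% and 16.6%. CCAAT stood in 14 of 21 and 14 of 16, against 36.5% and 35.7%. TTGGCGC can share letters with CCAAT read on the other strand, and in 3 of the 37 windows such matches overlapped. These are matches of letters, not measured sites. The stretches printed are the 200 bases up to the last base before the start, 5′ to 3′ along the gene, for a pair of replication genes that were lower, and a pair of mitosis genes that were higher, in replicate 1 of both genotypes. Capitals mark the E2F, CCAAT and CHR letters, in either direction. They lie at chr6:52284743-52284942 (minus strand), chr16:85688955-85689154 (minus), chr15:59104946-59105145 (plus) and chr17:40417897-40418096 (minus).
MCM3: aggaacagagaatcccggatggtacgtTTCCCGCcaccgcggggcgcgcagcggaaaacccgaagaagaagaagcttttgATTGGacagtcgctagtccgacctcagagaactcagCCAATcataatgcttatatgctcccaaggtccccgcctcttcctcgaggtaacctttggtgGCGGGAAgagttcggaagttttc
GINS2: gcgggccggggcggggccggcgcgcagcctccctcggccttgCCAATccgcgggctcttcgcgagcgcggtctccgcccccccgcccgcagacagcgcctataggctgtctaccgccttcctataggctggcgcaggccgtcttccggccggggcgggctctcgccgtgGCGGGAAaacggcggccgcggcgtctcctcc
CCNB2: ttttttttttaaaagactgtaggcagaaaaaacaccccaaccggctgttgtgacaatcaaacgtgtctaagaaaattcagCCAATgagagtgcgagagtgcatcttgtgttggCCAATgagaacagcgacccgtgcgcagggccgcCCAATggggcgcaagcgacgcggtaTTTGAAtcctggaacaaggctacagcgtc
TOP2A: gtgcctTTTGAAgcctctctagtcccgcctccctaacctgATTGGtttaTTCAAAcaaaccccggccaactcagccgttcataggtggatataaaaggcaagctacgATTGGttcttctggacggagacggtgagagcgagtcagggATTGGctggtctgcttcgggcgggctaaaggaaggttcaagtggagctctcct

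MCM3 and GINS2 each carry an E2F match close to the start (GCGGGAA, the core on the other strand) and lack a CHR match. MCM3 also carries a further E2F match (TTCCCGC) and 2 CCAAT matches in its stretch, and GINS2 carries 1 CCAAT match. CCNB2 carries 3 CCAAT matches and a CHR match in this stretch, and TOP2A carries 3 CCAAT and 2 CHR matches, with no E2F match in either.

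The 6 libraries listed 19068 to 20158 genes each, and the depth estimated from the smallest steps between low values was 21100000 to 22500000 fragments. Of 13092 genes tested, 820 were higher and 777 lower in the knockout libraries (limma, adjusted p below 0.05). SHARPIN itself stood at 11.9, 13.9 and 12.9 FPKM in the non-target libraries and 7.55, 11.9 and 18.1 FPKM in the knockout libraries (adjusted p = 0.827), so its transcript does not check the labels. Of 7 colon epithelial markers, KRT8, KRT18, EPCAM, CDH1 and CDX2 were well above the filter in all libraries, while VIL1 and CDX1 were below 3 FPKM and fell. The summed level of 8 fibroblast markers was 20.2, 7.97 and 7.78 FPKM in the non-target libraries and 0.234 to 0.812 FPKM in the knockout libraries, highest in replicate 1 of each genotype. COL1A1 and COL1A2 stood at 6.60 and 6.12 FPKM in non-target replicate 1 and at most 0.29 FPKM elsewhere. LUM made up most of the other non-target sums, at 5.03, 7.52 and 7.45 FPKM. It fell to 0.385, 0.199 and 0.151 FPKM in the knockout libraries (limma, adjusted p = 5.83e-05). Of 8 immune and endothelial markers 7 were listed, with sums of 19.95 to 25.7 FPKM in the non-target and 29.8 to 35.2 FPKM in the knockout libraries. Nearly all of that was CD68, a lysosomal protein best known from macrophages, at 24.97, 22.0 and 18.96 FPKM in the non-target and 34.98, 29.6 and 30.2 FPKM in the knockout libraries (limma, adjusted p = 0.085, and 0.0156 with the replicate block). PTPRC, the common leukocyte antigen, was at most 0.036 FPKM, and PECAM1, an endothelial adhesion protein, stood at 0.533 to 0.616 FPKM in the non-target and 0.010 to 0.062 FPKM in the knockout libraries. FPKM sums lay between 416852 and 431264 in 5 libraries, and at 522919 in knockout replicate 3.

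No replication or mitosis gene passed the test between genotypes. Of the 43 members, 0 rose and 0 fell (limma, adjusted p of at least 0.0838), where 12.2% of all genes tested were called, 6.26% as higher and 5.93% as lower. At an unadjusted p below 0.05 stood 4 members with higher and 2 with lower values in knockout, against 25.5% of all genes. The differences in log2(FPKM + 1) ran from -0.57 to 0.59, with a median of 0.08 over the replication genes, 0.00 over the mitosis genes and 0.02 over all genes tested. Scaled to TPM these medians were -0.01, -0.09 and -0.06, and with quantile normalization -0.02, -0.12 and 0.00. The sign of the replication median thus depended on the scaling, and the mitosis median was 0.00 or negative.

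A missed threshold does not show equal levels, and the intervals say how large a change the 6 libraries leave room for. The 95% interval of the difference lay within a 2-fold change of FPKM + 1 in either direction for 39 of the 43 members (90.7%), against 78.1% of all genes. For low genes this bound allows more than a 2-fold change of FPKM itself, in both shares. The 4 others reached past the bound on 1 side only: PCNA (-0.26 to 1.08), GINS2 (-0.50 to 1.05) and CDK1 (0.12 to 1.05) on the upper side, and MKI67 (-1.15 to 0.02) on the lower. The groups did not overlap in 8 members (18.6%), against 32.1% of all genes. In 5 of these every knockout library was higher (POLD1, GINS1, CDK1, AURKB and UBE2C; background 16.5%) and in 3 every knockout library was lower (BUB1B, CENPE and CENPF; background 15.7%).

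**Figure D1:**
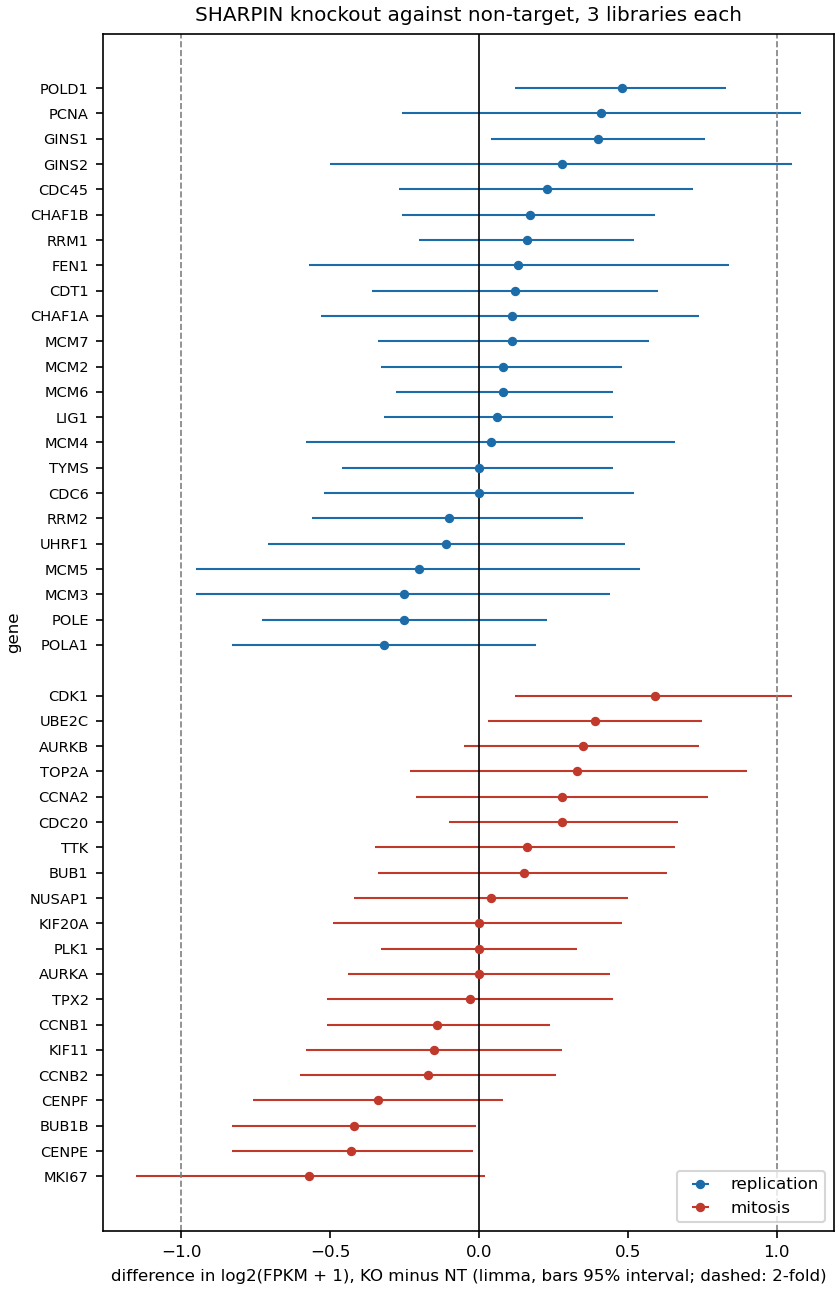
Difference in log2(FPKM + 1) between SHARPIN knockout and non-target for each of the 23 replication (blue) and 20 mitosis genes (red), as limma estimates with 95% intervals over 3 libraries per group. Dashed lines mark a 2-fold change of FPKM + 1. The estimates lie between -0.57 (MKI67) and 0.59 (CDK1), and 39 of the 43 intervals stay between the dashed lines.

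The MCM helicase showed no member past the threshold. The median absolute difference of its 6 subunits in log2(FPKM + 1) was 0.10 between genotypes. Between replicate 1 and the others it was 0.68 in non-target and 0.45 in knockout. Over all genes tested these values were 0.25, 0.23 and 0.32. The replicate 1 differences set 1 library against 2, and so vary more than a difference of 3 against 3. MCM3 stood at 34.8, 62.2 and 60.8 FPKM in the non-target libraries and 26.9, 50.7 and 56.4 FPKM in the knockout libraries, a difference of -0.25 ± 0.31 in log2(FPKM + 1) (SE, adjusted p = 0.668). MCM5 stood at 17.1, 32.2 and 33.5 FPKM in the non-target libraries and 13.9, 27.1 and 31.6 FPKM in the knockout libraries, a difference of -0.20 ± 0.33 in log2(FPKM + 1) (SE, adjusted p = 0.757). In both genes the replicate 1 libraries held 0.474 to 0.566 of the mean of replicates 2 and 3 of their genotype, and the groups overlapped. MCM4 stood at 24.7, 47.7 and 45.6 FPKM in the non-target libraries and 29.6, 48.5 and 41.1 FPKM in the knockout libraries, again low in both replicate 1 libraries. MCM7, the most abundant replication gene per length with a mean of 113 FPKM over the 6 libraries, stood at 83.1, 124 and 121 FPKM in the non-target libraries and 102, 115 and 134 FPKM in the knockout libraries (a difference of 0.11 ± 0.20 in log2(FPKM + 1) (SE, adjusted p = 0.784)). MCM2 and MCM6 varied least, from 20.9 to 29.00 and from 18.2 to 23.2 FPKM, with differences of 0.08 each.

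The loaders CDC6 and CDT1 went opposite ways between replicate numbers. CDC6, an ATPase that brings the helicase to origins, stood at 6.33, 11.04 and 11.2 FPKM in the non-target libraries and 7.61, 10.7 and 9.70 FPKM in the knockout libraries. CDT1, its partner that is destroyed once S phase starts, stood at 31.8, 22.6 and 23.9 FPKM in the non-target libraries and 33.2, 21.3 and 31.3 FPKM in the knockout libraries. CDC6 was lowest and CDT1 highest in replicate 1 of each genotype, and neither differed between genotypes (0.00 ± 0.23 and 0.12 ± 0.21 in log2(FPKM + 1), SE, limma adjusted p = 0.9995 and 0.783).

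In the FPKM as deposited, all 3 helicase activators were higher in knockout within each replicate number, without passing the test. Knockout replicate 3 had an FPKM sum of 522919, against 431264 in non-target replicate 3. Scaled to TPM, GINS2, which differed by 0.19 within replicate 3, would be lower in knockout there. CDC45 stood at 9.90, 14.1 and 14.6 FPKM in the non-target libraries and 11.5, 15.5 and 18.9 FPKM in the knockout libraries, a difference of 0.23 ± 0.22 in log2(FPKM + 1) (SE, adjusted p = 0.583). GINS1 stood at 6.04, 7.28 and 6.37 FPKM in the non-target libraries and 8.49, 9.29 and 9.17 FPKM in the knockout libraries, a difference of 0.40 ± 0.16 in log2(FPKM + 1) (SE, adjusted p = 0.146). GINS2 stood at 10.5, 23.4 and 25.7 FPKM in the non-target libraries and 14.9, 26.5 and 29.4 FPKM in the knockout libraries, a difference of 0.28 ± 0.35 in log2(FPKM + 1) (SE, adjusted p = 0.675). The groups did not overlap for GINS1 only. Across all 43 members, 12 were higher in knockout within all 3 replicate numbers (27.6% of all genes were) and 7 were lower (24.1% of all genes), shares of 27.9% and 16.3% of the members.

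Among the polymerases, POLD1 was the replication gene with the smallest p. POLD1 (chromosome 19, 50887461 to 50921275, GRCh37), the catalytic subunit of lagging-strand polymerase delta, stood at 11.6, 14.01 and 13.1 FPKM in the non-target libraries and 18.6, 16.9 and 19.5 FPKM in the knockout libraries, a difference of 0.48 ± 0.16 in log2(FPKM + 1) (SE, adjusted p = 0.0838). Every knockout library lay above every non-target library, by 0.64, 0.26 and 0.54 in log2(FPKM + 1) within replicates 1, 2 and 3. Exons of POLD1 overlap another protein-coding gene on the same strand, so its fragments are uncertain. POLA1, the polymerase alpha subunit that extends primers, stood at 3.69, 5.03 and 5.14 FPKM in the non-target libraries and 2.44, 4.78 and 3.48 FPKM in the knockout libraries, a difference of -0.32 ± 0.23 in log2(FPKM + 1) (SE, adjusted p = 0.424). POLE, the leading-strand enzyme, stood at 10.1, 15.2 and 15.2 FPKM in the non-target libraries and 9.23, 13.7 and 10.5 FPKM in the knockout libraries, a difference of -0.25 ± 0.21 in log2(FPKM + 1) (SE, adjusted p = 0.514). The last pair was lower in knockout within each number but overlapped between the groups. With the replicate number as a block, POLD1 passed as higher (limma, adjusted p = 0.028), the only replication gene to do so, where 25.3% of all genes passed. In that fit 86.4% of genes took their spread wholly from the trend, so its p need not reflect agreement among the replicate numbers.

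PCNA, the sliding clamp and also a known p53 target, stood at 57.1, 109 and 103 FPKM in the non-target libraries and 80.3, 124 and 152 FPKM in the knockout libraries, a difference of 0.41 ± 0.30 in log2(FPKM + 1) (SE, adjusted p = 0.436). It was higher in knockout within each number, yet knockout replicate 1 lay below non-target replicates 2 and 3. FEN1, the flap nuclease that trims Okazaki fragments, stood at 14.4, 28.8 and 27.6 FPKM in the non-target libraries and 16.3, 27.9 and 33.5 FPKM in the knockout libraries, a difference of 0.13 ± 0.31 in log2(FPKM + 1) (SE, adjusted p = 0.841). LIG1, which seals them, ranged from 11.7 to 15.95 FPKM. PCNA and FEN1 in replicate 1 held 0.510 to 0.580 of the mean of the other libraries of their genotype.

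None of the 3 nucleotide supply genes passed the test or had groups apart. TYMS, thymidylate synthase, stood at 58.6, 78.5 and 82.3 FPKM in the non-target libraries and 59.4, 72.9 and 86.8 FPKM in the knockout libraries, a difference of -0.00 ± 0.20 in log2(FPKM + 1) (SE, adjusted p = 0.996). RRM2, the S phase subunit of ribonucleotide reductase, stood at 30.01, 46.3 and 44.6 FPKM in the non-target libraries and 32.1, 41.2 and 37.6 FPKM in the knockout libraries, and was lowest in both replicate 1 libraries. RRM1, the large subunit, whose protein level varies less over the cycle, stood at 32.9, 29.2 and 29.5 FPKM in the non-target libraries and 38.7, 32.6 and 31.8 FPKM in the knockout libraries, and was highest in both.

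The chromatin genes likewise overlapped between groups. CHAF1A and CHAF1B, subunits of the histone chaperone CAF-1, had differences of 0.11 and 0.17 in log2(FPKM + 1), and UHRF1, which guides DNMT1 to copy DNA methylation, of -0.11. CHAF1A stood at 12.9, 20.8 and 20.01 FPKM in the non-target libraries and 12.1, 22.4 and 25.1 FPKM in the knockout libraries. UHRF1 stood at 5.09, 10.8 and 10.3 FPKM in the non-target libraries and 6.23, 9.16 and 7.73 FPKM in the knockout libraries. Both were again lowest in replicate 1 of each genotype.

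**Figure D2:**
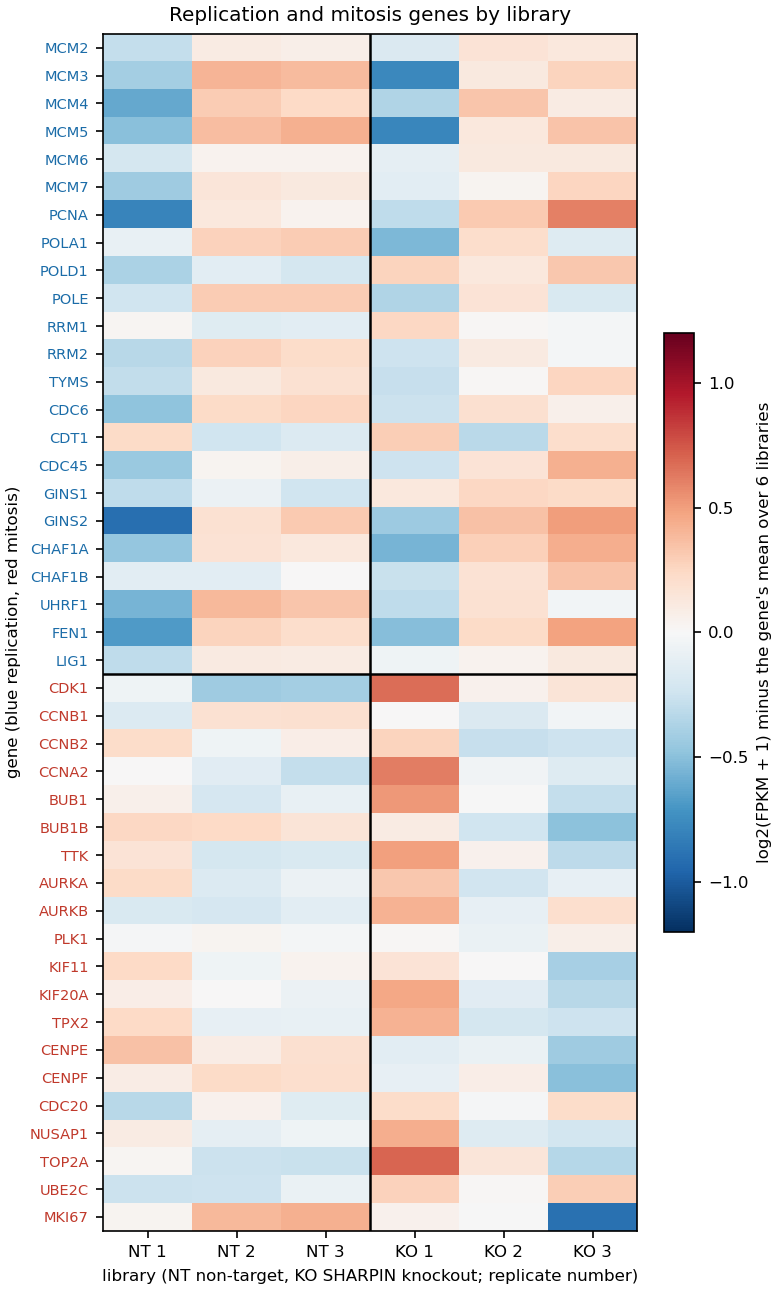
Log2(FPKM + 1) of each of the 43 genes minus its mean over the 6 libraries, with replication genes (blue names) above and mitosis genes (red names) below the line and non-target (NT) left and knockout (KO) right. The first column of each genotype is blue for most replication genes, and 19 of 23 were lowest in replicate 1 of both genotypes, whereas no mitosis gene was.

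In the mitotic cyclin and CDK group, CDK1 had the smallest p of the mitosis genes. CDK1 (chromosome 10, 62538089 to 62554610, GRCh37), the kinase that drives entry into mitosis, stood at 48.7, 37.3 and 37.8 FPKM in the non-target libraries and 81.00, 52.5 and 56.1 FPKM in the knockout libraries, a difference of 0.59 ± 0.21 in log2(FPKM + 1) (SE, adjusted p = 0.105). Every knockout library was above every non-target library, and replicate 1 was the highest of each genotype. CCNB1, the main cyclin partner of CDK1, stood at 50.3, 64.00 and 64.5 FPKM in the non-target libraries and 56.5, 49.96 and 54.97 FPKM in the knockout libraries, a difference of -0.14 ± 0.17 in log2(FPKM + 1) (SE, adjusted p = 0.665). CCNB2 and CCNA2 had differences of -0.17 ± 0.19 and 0.28 ± 0.22 (SE, limma adjusted p = 0.646 and 0.480). CCNA2 stood at 24.7, 22.4 and 20.02 FPKM in the non-target libraries and 38.1, 23.96 and 22.04 FPKM in the knockout libraries, with only knockout replicate 1 apart from the rest. With the replicate block CDK1 passed as higher (limma, adjusted p = 0.00443), with the same limit as for POLD1.

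The mitotic kinases AURKA and PLK1 had differences of 0.00 ± 0.20 and 0.00 ± 0.15 in log2(FPKM + 1) (SE). PLK1, which matures centrosomes and helps to start mitosis, stood at 34.8, 35.9 and 34.3 FPKM in the non-target libraries and 35.4, 32.97 and 36.8 FPKM in the knockout libraries, the narrowest range of the group. AURKB, the kinase of the chromosomal passenger complex, stood at 37.8, 37.3 and 39.3 FPKM in the non-target libraries and 57.8, 40.1 and 49.8 FPKM in the knockout libraries, a difference of 0.35 ± 0.18 in log2(FPKM + 1) (SE, adjusted p = 0.257). Non-target values of AURKB were close together, and knockout replicates 1 and 3 lay well above them.

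The spindle checkpoint kinases had differences of both signs, none past the threshold with all libraries in the fit. BUB1B (chromosome 15, 40453224 to 40513324, GRCh37), or BubR1, which holds back the anaphase-promoting complex, stood at 19.7, 19.5 and 18.3 FPKM in the non-target libraries and 17.6, 13.8 and 11.4 FPKM in the knockout libraries, a difference of -0.42 ± 0.18 in log2(FPKM + 1) (SE, adjusted p = 0.184). Every knockout library was lower. BUB1 and TTK (MPS1), which act upstream of it, had differences of 0.15 ± 0.22 and 0.16 ± 0.22 (SE, limma adjusted p = 0.722 and 0.720). BUB1B passed as lower without knockout replicate 1 (-0.58, limma adjusted p = 0.0366, where 14.5% of all genes passed) and without replicate 1 of both genotypes (-0.56, adjusted p = 0.0462), a choice made after seeing the data, in which CDK1 also passed as higher (0.52, adjusted p = 0.0486) and 17.4% of all genes did. Exons of BUB1B overlap a read-through transcript with PAK6 on the same strand, so its fragments are uncertain.

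Of the 4 spindle genes, none had groups apart. TPX2, which targets AURKA to spindle microtubules, stood at 61.3, 48.2 and 48.5 FPKM in the non-target libraries and 69.6, 44.5 and 43.5 FPKM in the knockout libraries, a difference of -0.03 ± 0.22 in log2(FPKM + 1) (SE, adjusted p = 0.952). KIF20A, a kinesin of the midzone, stood at 26.6, 25.1 and 23.9 FPKM in the non-target libraries and 35.2, 22.7 and 19.7 FPKM in the knockout libraries. KIF11, the kinesin that separates the poles, and NUSAP1, a microtubule stabiliser, had differences of -0.15 and 0.04. Knockout replicate 1 was the highest of all 6 libraries for TPX2, KIF20A and NUSAP1, and knockout replicate 3 the lowest.

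The anaphase-promoting complex partners had higher means in knockout. UBE2C, its ubiquitin-conjugating enzyme, stood at 67.2, 67.9 and 76.3 FPKM in the non-target libraries and 97.8, 81.4 and 99.1 FPKM in the knockout libraries, a difference of 0.39 ± 0.16 in log2(FPKM + 1) (SE, adjusted p = 0.167). CDC20, its activator and the mitosis gene with the highest mean per length (89.8 FPKM over 6 libraries), stood at 70.4, 92.4 and 80.3 FPKM in the non-target libraries and 104, 88.3 and 104 FPKM in the knockout libraries, a difference of 0.28 ± 0.17 in log2(FPKM + 1) (SE, adjusted p = 0.343). The groups were apart for UBE2C and overlapped for CDC20.

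The kinetochore genes and MKI67 had the lowest values in knockout replicate 3. CENPE, a kinesin that carries chromosomes to the spindle equator, stood at 4.67, 3.72 and 4.08 FPKM in the non-target libraries and 3.05, 3.20 and 2.29 FPKM in the knockout libraries, a difference of -0.43 ± 0.18 in log2(FPKM + 1) (SE, adjusted p = 0.17). CENPF, a large coiled-coil protein of the outer kinetochore, stood at 15.7, 17.4 and 17.1 FPKM in the non-target libraries and 13.7, 15.7 and 10.1 FPKM in the knockout libraries, a difference of -0.34 ± 0.19 in log2(FPKM + 1) (SE, adjusted p = 0.293). MKI67 (chromosome 10, 129894923 to 129924687, GRCh37), the Ki-67 proliferation antigen that coats mitotic chromosomes, stood at 27.3, 35.3 and 36.2 FPKM in the non-target libraries and 27.7, 26.5 and 13.8 FPKM in the knockout libraries, a difference of -0.57 ± 0.26 in log2(FPKM + 1) (SE, adjusted p = 0.208). MKI67 differed by 0.02, -0.40 and -1.33 within replicates 1, 2 and 3. With the replicate block it passed as lower (limma, adjusted p = 0.00572), in a fit where 86.4% of genes took their spread wholly from the trend. That p thus need not reflect the spread of the differences within replicates. Without knockout replicate 3 the difference was -0.26 (limma, adjusted p = 0.407).

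These 3 genes have the longest transcripts of the members, at 8541, 10290 and 12716 nt for CENPE, CENPF and MKI67 (canonical GENCODE transcript, GRCh37). In knockout replicate 3, the deviation from the gene's mean over 6 libraries ran against transcript length with Spearman's rho of -0.92 over the 20 mitosis genes, -0.61 over the 23 replication genes and -0.51 over 11983 tested genes with a length. In the other 5 libraries it lay between 0.10 and 0.21 over all those genes. Genes of 1 library share its preparation, so these values carry no p. Of the 7 members of at least 5000 nt, 6 were lower in knockout, with a median difference of -0.32, against 12 of 36 shorter members, with a median of 0.09. TOP2A, the decatenating topoisomerase with a transcript of 5695 nt, was the exception at 70.7, 58.05 and 57.6 FPKM in the non-target libraries and 113, 77.00 and 54.8 FPKM in the knockout libraries, a difference of 0.33 ± 0.25 in log2(FPKM + 1) (SE, adjusted p = 0.456). Over all genes with a length, 1837 of 2987 long and 3890 of 8996 shorter ones were lower in knockout, with medians of -0.09 and 0.06. The part of transcript length in the lower values of MKI67, CENPE and CENPF was not tested.

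**Figure D3:**
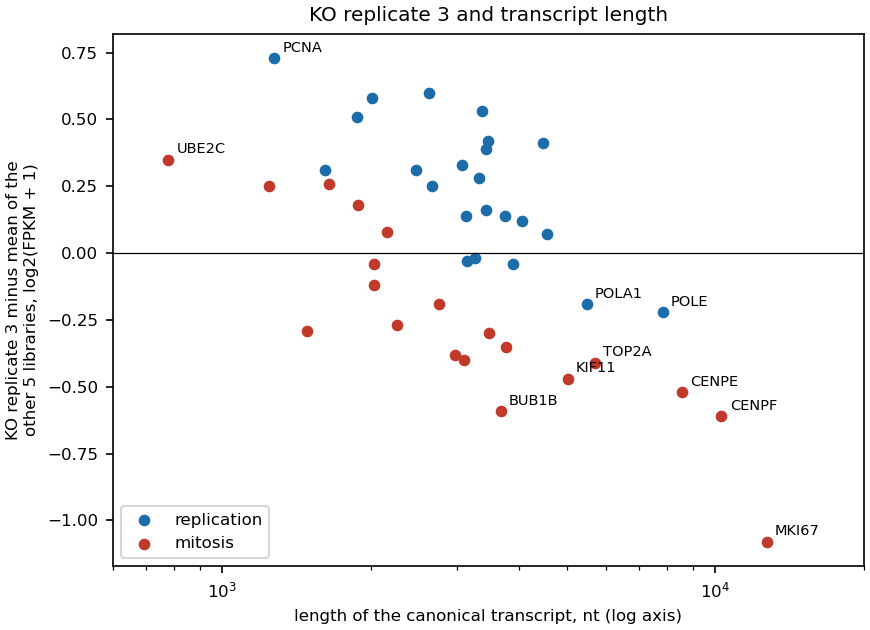
For each gene, log2(FPKM + 1) in knockout replicate 3 minus the mean of the other 5 libraries, against the length of its canonical transcript in nt on a log axis. UBE2C (777 nt) lies at 0.35 and MKI67 (12716 nt) at -1.08, and points fall with length in both sets.

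The members also sorted by replicate number. Of the 23 replication genes, 19 (82.6%) were lower in replicate 1 than in replicates 2 and 3 of both genotypes, where 24.9% of all genes tested were. The 19 held 0.426 to 0.885 of the mean of the other libraries in non-target (median 0.661) and 0.474 to 0.920 in knockout (median 0.738). CDT1 and RRM1 were higher in replicate 1 of both, and POLD1 and CHAF1B were neither. Of the 20 mitosis genes, 0 were lower and 12 (60.0%) were higher in replicate 1 of both genotypes, where 24.4% of all genes were higher. These 12, CDK1, CCNB2, CCNA2, BUB1, BUB1B, TTK, AURKA, KIF11, KIF20A, TPX2, NUSAP1 and TOP2A, reached 1.04 to 1.31 times the other libraries in non-target and 1.31 to 1.72 times in knockout.

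**Figure D4:**
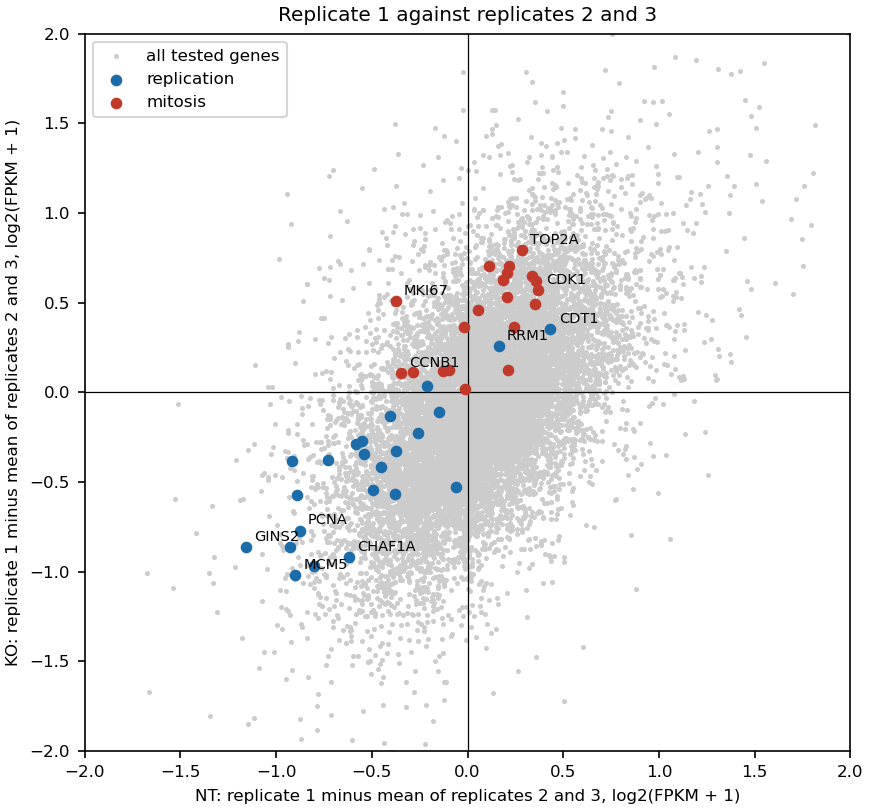
Replicate 1 minus the mean of replicates 2 and 3 in log2(FPKM + 1), for non-target (x axis) and knockout (y axis); grey points are all tested genes, of which 33 and no member lie beyond the axes. Replication genes (blue) gather at lower left, with medians of -0.54 and -0.38, and mitosis genes (red) lie mostly above 0 on the y axis, with medians of 0.19 and 0.50.

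As medians over a set, in log2(FPKM + 1) relative to each gene's own mean, replication genes stood at -0.38, 0.14 and 0.13 in the non-target and -0.27, 0.17 and 0.23 in the knockout libraries. Mitosis genes stood at 0.07, -0.08 and -0.07, and at 0.30, -0.06 and -0.25. All genes tested stayed between -0.06 and 0.06. The replicate 1 libraries thus held the lowest replication and the highest mitosis medians of their genotype. Scaled to TPM, 14 of 23 replication genes were lower in replicate 1 of both genotypes (background 20.2%). With median-ratio scaling 18 were (background 24.4%), and with quantile normalization 20 (background 26.7%). The corresponding mitosis counts that were higher were 12, 11 and 12 of 20 (backgrounds 27.95%, 27.0% and 26.1%). The labels do not say what a replicate number stands for. The fibroblast marker sum was also highest in replicate 1 of each genotype, at 20.2 FPKM against 7.97 and 7.78 in non-target and 0.812 FPKM against 0.297 and 0.234 in knockout. LUM alone of its markers went the other way in non-target, at 5.03 FPKM in replicate 1 against 7.52 and 7.45. The part of the marker sum was not tested.

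**Figure D5:**
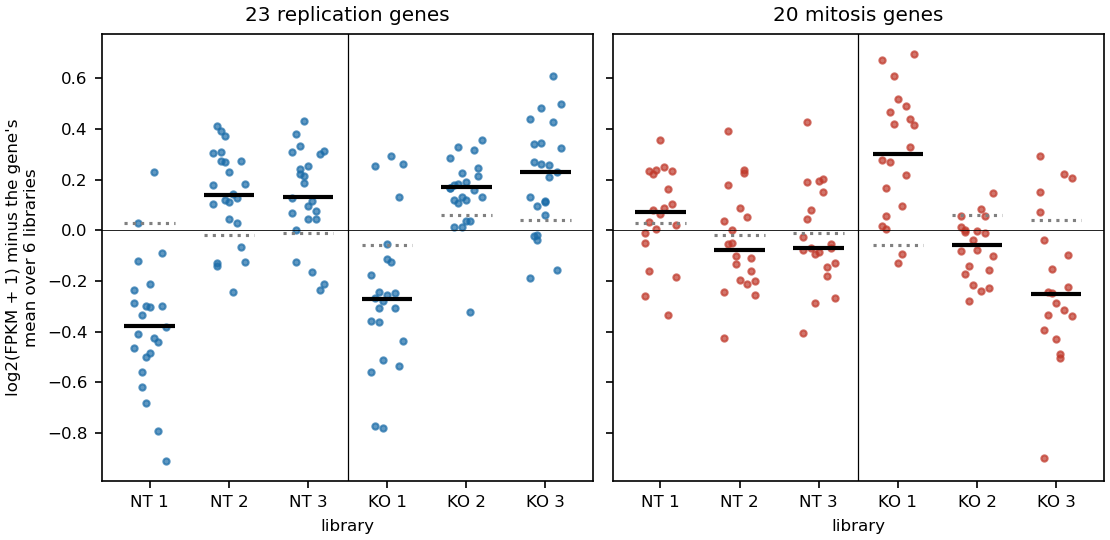
Each point is 1 gene in 1 library, as log2(FPKM + 1) minus the gene's mean over the 6 libraries; black bars are medians of the set and dotted bars medians of all tested genes. The replication medians of the replicate 1 libraries, -0.38 and -0.27, lie below the other 4 libraries at 0.13 to 0.23, while for mitosis genes knockout replicate 1 is the highest at 0.30.

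Other genes of the same processes gave 1 call in 98, where 12.2% of all genes tested were called. These lists too were chosen with earlier results of these data known. Of 38 other replication genes, 1 rose, 0 fell and 37 did not pass, with a median difference of 0.05. The gene that rose was CHTF18, which helps load PCNA, from 9.04 ± 0.655 to 14.3 ± 1.32 FPKM (SD, n = 3; limma, adjusted p = 0.0329), and it did not pass in 5 of the 6 fits that left out 1 library (adjusted p up to 0.210). Of 60 other mitosis genes 0 passed, with a median of 0.01, and at an unadjusted p below 0.05 stood 2 higher and 4 lower ones (6 of 60, against 25.5% of all genes). The smallest p was that of HJURP, the chaperone of the centromeric histone CENPA, at 32.7 ± 0.335 and 51.7 ± 12.3 FPKM (limma, adjusted p = 0.0631, and 0.00217 with the replicate block). With the replicate block 2 of the 38 replication genes rose and 2 fell, and 1 of the 60 mitosis genes rose and 4 fell, where 25.3% of all genes passed.

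The regulators upstream did not pass either. Of 20 genes of the E2F, RB, DREAM and FOXM1 circuit, 0 passed, where 12.2% of all genes tested did. At an unadjusted p below 0.05 stood 1 higher and 2 lower, against 25.5% of all genes. The median difference of the 20 was -0.17, against 0.02 over all genes. RB1, the retinoblastoma protein that restrains E2F, had the smallest p, at 9.51, 9.49 and 9.78 FPKM in the non-target and 5.61, 8.05 and 4.93 FPKM in the knockout libraries (limma, adjusted p = 0.0855, and 0.0119 with the replicate block). Of 13 replication checkpoint genes, 1 fell and 12 did not pass, where 5.93% of all genes fell. HUS1, a subunit of the 9-1-1 clamp that activates ATR, went from 12.5 ± 0.728 to 6.91 ± 0.725 FPKM (SD, n = 3; -0.78 ± 0.16, SE, limma adjusted p = 0.0114), with no overlap between groups, but it lost the call in 2 of the 6 fits that left out 1 library, those without non-target replicate 2 and without non-target replicate 3 (the higher adjusted p was 0.110). CDKN1A, which encodes the CDK inhibitor p21 and was named after its values were seen, stood at 80.1, 72.9 and 78.8 FPKM in the non-target and 245, 192 and 218 FPKM in the knockout libraries (limma, adjusted p = 0.00039). It was 1.39 to 1.60 higher in log2(FPKM + 1) within each replicate number. A relation of CDKN1A to the levels of the replication and mitosis genes was not tested.

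Weighting libraries by their fit gave more calls. With limma's array weights, 40.2% of all genes passed, and of the members GINS1, POLD1, CDK1 and TOP2A as higher and BUB1B, CCNB1, CCNB2 and MKI67 as lower. Exons of 13 of the 43 members overlap another protein-coding gene in GENCODE, and the sources used here do not state if strand was used in counting, so the fragments of those members are uncertain.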

How the data were processed

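The authors deposited 1 table per library, of gene symbol and FPKM: fragments divided by transcript length and by the total mapped in that library. Per the submitters' processing notes, reads were trimmed, aligned to hg19 with TopHat2 2.1.1 and quantified with STAR 2.7.10b. A symbol missing from a table was set to 0. Depth was estimated as the step of 1 fragment in low values of genes with 1 transcript, which rests on 72 to 102 of 750 to 871 values per library that lay within 2% of 1 or 2 steps, so no count test was run. The authors' FPKM were compared as log2(FPKM + 1) with limma 3.58.1 in R 4.3.3 (intensity trend, robust empirical Bayes, two-sided), on the 13092 genes that reached 1 FPKM in 3 or more libraries. The test ran over the whole table with Benjamini-Hochberg adjustment at 0.05. The pseudocount understates changes of low genes. The fit was also run on simulated data, drawn independently for each gene and library. Such data hold no pattern shared by replicate number or transcript length, so they cannot show how the fit handles these.

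The members and lists were chosen with earlier results of these data known. Values in every library are given for members that passed, or else for at least the 4 with the smallest p and the most abundant of each set, and for further members chosen after their values were seen. In each other list, up to 4 members past the threshold or the 1 with the smallest p are named.

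Deviations from the group means correlated at 0.547, 0.309 and 0.331 across genes between libraries numbered 1, 2 and 3. Each is above 0.1, so the replicate numbers were taken to pair the libraries. Non-target replicate 2 correlated as well with knockout replicate 3 (0.320), so the pairing rests on replicate 1. With the block, 2 residual degrees of freedom remain, and 86.4% of genes took their spread wholly from the trend. A p from the block thus need not reflect how well the replicate numbers agree. Alternatives were other pseudocounts (0.5 and 0.1), filters (none, or a mean of 5 FPKM) and scalings, no trend, array weights, the block, and leaving out libraries. Positions of transcripts and promoters come from GENCODE on GRCh37 and RefSeq on GRCh38.p14.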

Additional observations from a re-analysis of the deposited data

How the results depend on the processing

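In 19 of 24 alternatives 0 members passed the threshold, and 35 of the 43 members passed in none. The count of 0 replication genes became 2 with array weights and 1 with the replicate block, and was 0 to 0 when single libraries were left out. The count of 0 mitosis genes became 6 with array weights, 2 with the replicate block, 2 without replicate 1 of both groups (a choice made after seeing the data), and 0 to 1 when single libraries were left out. Over all genes, the 1597 calls became 865 at a mean of at least 5 FPKM, which tests fewer genes, 5269 with array weights, 3309 with the replicate block, and 944 with non-target replicates 2 and 3 as 1 library. Leaving out single libraries gave 648 to 1869 calls, or 911 to 1970 on the genes of the full fit. The lowest came without non-target replicate 3 (648), then without non-target replicate 2 (679; 958 on those genes) and without knockout replicate 2 (1046). Where these counts moved, the cause was not tested. With 3 libraries a group, the median SE of the members' differences was 0.20 in log2(FPKM + 1).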
